A study of Homo sapiens with 4 samples.

Results

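The cholesterol pathway was read in Hep G2 cells through 33 genes. They were 8 enzymes of the mevalonate and isoprenoid steps, 11 enzymes from squalene to cholesterol and 7 genes of SREBP2 control and sterol-regulated targets. A further 3 were of cholesteryl ester turnover and 4 of efflux and lysosomal export. All 33 were picked by symbol from the 62655 gene IDs of the count table, and each symbol matched 1 ID. Hep G2 is an established human liver carcinoma cell line with many hepatocyte functions. The mimic group of 2 libraries came from cells transfected with an oligonucleotide that copies LysTTT-5'tRF, the 5' part of a tRNA for lysine (anticodon TTT), and the control group of 2 libraries from cells given a negative control oligonucleotide. Both groups had been plated at 150000 cells per ml, kept in oleic acid-rich medium from 24 h after plating, transfected 24 h later with the same lipid-based reagent and harvested after a further 24 h. The comparison asks which transcripts differ when the fragment is added to fat-loaded cells. It rests on 1 cell line and 1 control oligonucleotide, and the labels do not say whether the libraries of a group came from separate cultures, so the spread behind each p-value may be technical.

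Cells build cholesterol from acetyl-CoA through mevalonate, isoprenoid diphosphates, squalene and lanosterol. The transcription factor SREBP2 switches most of these enzymes on. When sterols are plentiful, SCAP and the INSIG proteins hold SREBP2 in the endoplasmic reticulum, so the enzymes tend to move together. Surplus cholesterol is esterified by SOAT enzymes for storage in lipid droplets, released again by ester hydrolases, or exported by ABC transporters that answer to oxysterols through the nuclear receptor LXR. The liver is a main site of all these steps.

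Reads assigned to genes numbered 15430539 and 18961222 in mimic libraries 1 and 2, against 16793484 and 15970530 in control libraries 1 and 2. Of 7 hepatocyte markers all were expressed, with a summed level of 17692 and 17275 CPM (counts per 1000000 reads of library size, scaled with TMM factors) in the mimic libraries and 16442 and 15059 CPM in the control libraries, and 1 of them (ALB) was called higher. Of the markers of other cell types, PTPRC, COL1A2 and DCN had no read in any library, and CD68 had 0 to 3 reads per library. The other fibroblast or stellate cell markers were expressed, ACTA2 between 12.4 and 15.2 CPM and COL1A1 between 2.875 and 3.974 CPM. The summed endothelial markers stayed between 9.31 and 11.5 CPM, and LYZ, listed as a leukocyte marker, stood between 1474 and 1620 CPM. On the first principal component of all tested genes (40.7% of the variance) the mimic libraries 1 and 2 had scores of -23 and -4.62, against 1.53 and 26 for the control libraries 1 and 2. Each end was thus held by 1 library, one from either group, and edgeR called 20 genes without mimic library 1 and 22 without control library 2, against 50 with all 4. In bulk libraries a change per cell and a change in the share of cells that express a gene cannot be told apart.

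Of the 33 genes 32 had enough reads to be tested, and 1 of them was called: NCEH1, higher with the mimic. It encodes a membrane-bound hydrolase of cholesteryl esters in the endoplasmic reticulum. The call did not hold in every setting, and was lost when genes with few reads were kept in (log2 fold change 0.34). Without control library 2 the log2 fold change of NCEH1 was 0.26. The other 31 did not pass a threshold of 0.05 on the edgeR BH adjusted p (quasi-likelihood F test, Benjamini-Hochberg over all 14464 genes tested). Among all genes 50 passed, or 0.346%, and 40 of them, or 0.277%, were higher with the mimic. limma voom also called 1 of the 32, again NCEH1. DESeq2 gave an adjusted p to 10 of the 32 and called NCEH1 among these; the other 22, TM7SF2 and SC5D among them, had none. An unadjusted p under 0.05 was found for 4 of the 32 (NCEH1, SC5D, TM7SF2 and ABCA1), or 12.5%, against 9.43% of all genes. The groups of libraries did not overlap in 15 of the 32, or 46.9%, against 39.1% of all genes tested; 8 of these were higher with the mimic, against 19.8% of all genes, and 7 lower, against 19.3%. These shares lay near those of all genes. The median log2 fold change of the 32 was -0.01, against 0.00 over all genes, with 15 members above 0 and 17 below. The median absolute log2 fold change was 0.10 both in the 32 members and in all genes. The 95% interval of the fold change lay wholly within a 1.25-fold change in either direction for 20 of the 32, within a 1.5-fold change for 29 and within a 2-fold change for all 32.

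**Figure D1:**
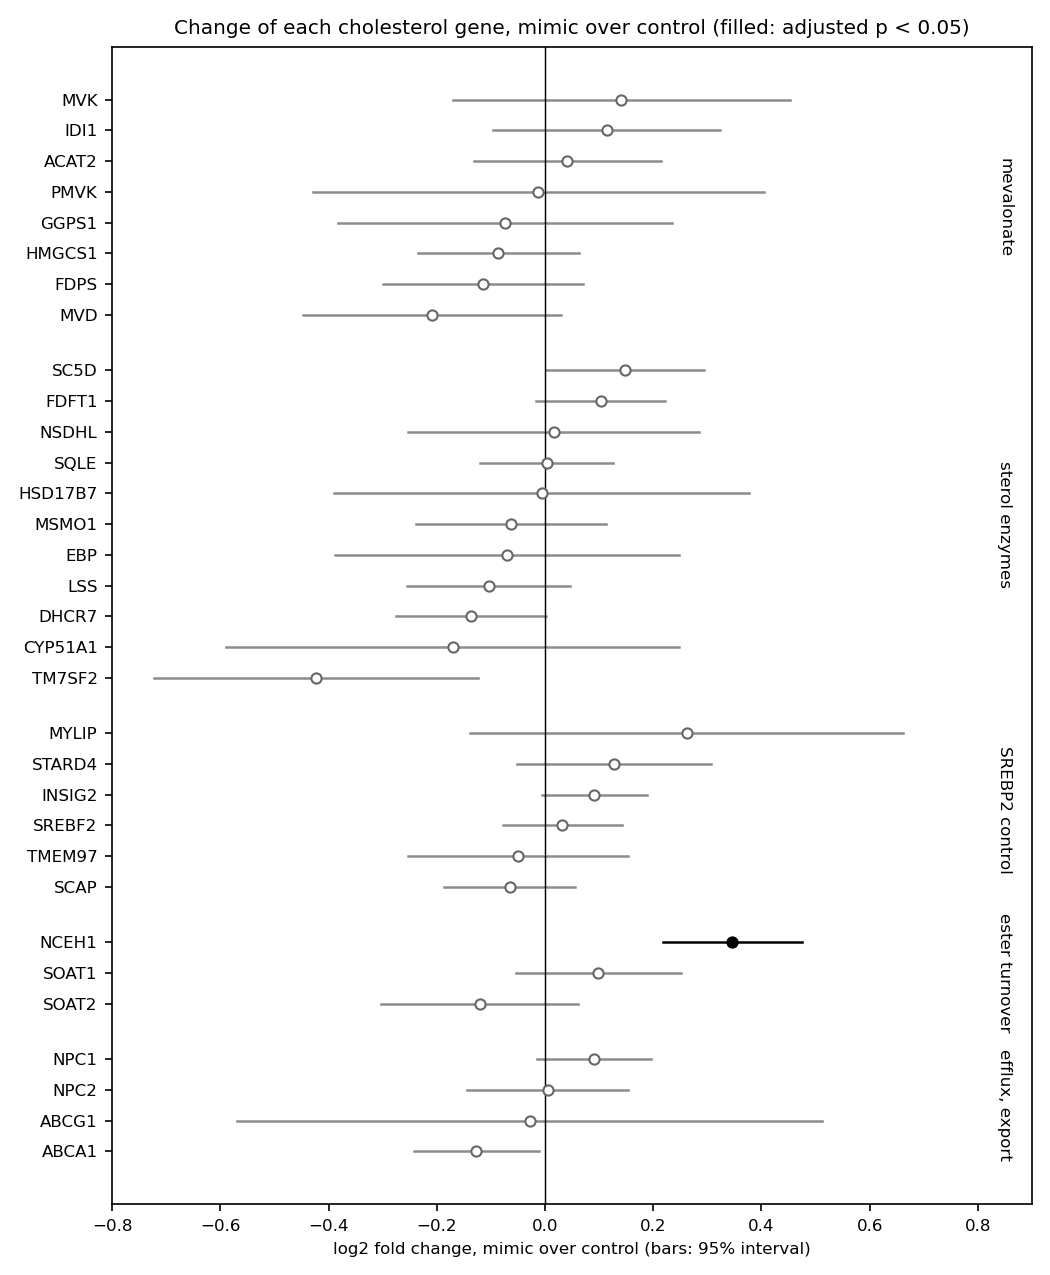
Log2 fold change of each of 32 tested genes, mimic over control, with its 95% interval, grouped by role. NCEH1, at 0.35, is the only filled point (adjusted p under 0.05), and TM7SF2, at -0.42, lies lowest with a wider interval.

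**Figure D2:**
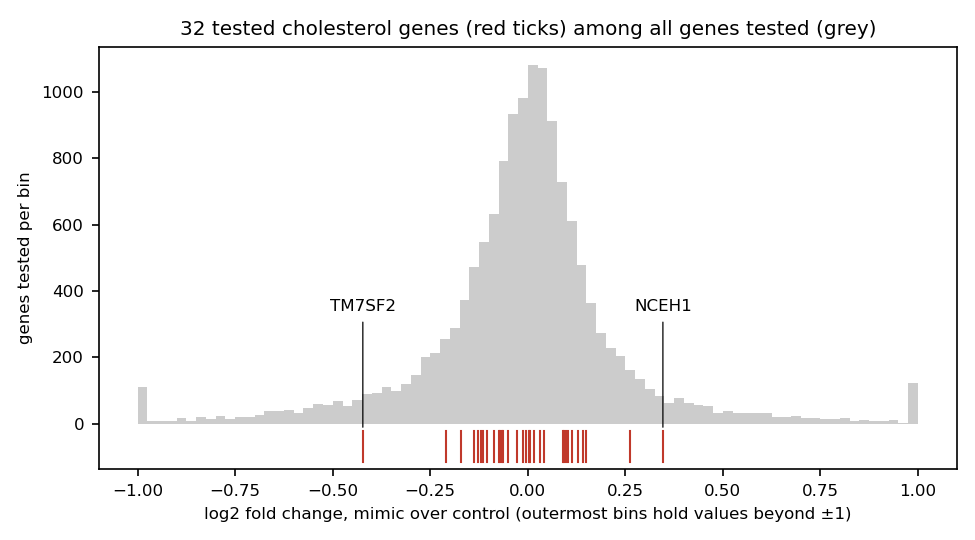
Distribution of the log2 fold change, mimic over control, over all 14464 genes tested (grey bars, genes per bin) with the 32 cholesterol genes as red ticks. The ticks spread over the centre of the distribution, from -0.42 for TM7SF2 to 0.35 for NCEH1.

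Promoter sequences from RefSeq (GRCh38.p14) were found for 28 of the 33 genes, in 37 windows of 250 bases before to 50 bases after a start site. Those of NCEH1 and TM7SF2 are shown as the genes with the highest and the lowest log2 fold change. That of SREBF2 is shown because it matched the exact form of the sterol regulatory element that was searched. Less exact forms were not searched, so windows without a match may still hold such an element. The 250 bases before the start are given 5' to 3' on the strand of the gene, at chr3:172711068-172711317 (minus strand), chr11:65111622-65111871 (plus strand) and chr22:41832855-41833104 (plus strand). Capitals mark TCACNCCAC, a form of the sterol regulatory element bound by SREBP proteins, and CCAAT, the box bound by NF-Y, which reads ATTGG where it lies on the other strand.
NCEH1: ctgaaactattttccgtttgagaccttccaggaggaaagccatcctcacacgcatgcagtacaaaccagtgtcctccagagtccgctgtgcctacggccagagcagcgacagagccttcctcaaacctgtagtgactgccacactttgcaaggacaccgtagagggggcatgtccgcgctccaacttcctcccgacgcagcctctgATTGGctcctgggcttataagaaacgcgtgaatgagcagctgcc
TM7SF2: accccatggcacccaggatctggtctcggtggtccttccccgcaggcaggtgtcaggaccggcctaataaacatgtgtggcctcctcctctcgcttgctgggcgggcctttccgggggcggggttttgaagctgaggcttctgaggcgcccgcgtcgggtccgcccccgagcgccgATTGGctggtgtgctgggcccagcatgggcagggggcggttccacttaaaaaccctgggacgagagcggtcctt
SREBF2: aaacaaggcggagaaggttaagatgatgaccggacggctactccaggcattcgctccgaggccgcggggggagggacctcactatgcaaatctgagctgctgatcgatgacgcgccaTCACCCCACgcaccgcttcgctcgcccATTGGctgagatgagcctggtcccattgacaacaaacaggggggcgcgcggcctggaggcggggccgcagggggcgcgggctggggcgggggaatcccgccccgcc
In NCEH1 the box begins 44 bases before the RefSeq start, in TM7SF2 74 bases and in SREBF2 106 bases. Searched on both strands, CCAAT was present in 24 of 37 member windows (64.9%) and in 34.6% of all 35116 windows of the table. Counted by gene, it was present in 22 of 28 members and in 10846 of all 27305 genes. These were not matched to the members by gene type or expression. TCACNCCAC was present in 1 member window, that of SREBF2, 133 bases before its start, and in 1.13% of all windows. There it overlaps the classical element of 10 letters, which adds an A in front and was present in 0.0456% of all windows. An exact form of the element bound by LXR with its partner RXR is AGGTCA repeated after any 4 bases. It was present in 0 member windows and in 7 of all 35116 windows (0.0199%). At so low a share, 0 of 37 windows says little about the members, and inexact repeats were not searched. Such matches describe letters within these windows and do not show binding.

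None of the 8 mevalonate and isoprenoid genes passed the test, and 3 had log2 fold changes above 0 and 5 below (median -0.04). MVD, the decarboxylase that closes the mevalonate steps, had 24.2 and 20.4 CPM in the mimic libraries, against 23.5 and 27.8 CPM in the control libraries. These groups overlap, and the log2 fold change of -0.21 (95% interval -0.45 to 0.03) had an edgeR BH adjusted p of 0.607. It was -0.08 without mimic library 2 and likewise without control library 2. FDPS, which makes farnesyl diphosphate, had 38.2 and 33.8 CPM with the mimic, against 39.5 and 38.1 CPM in the control. Here mimic library 2 was low and the other 3 libraries were close, with a log2 fold change of -0.11 (interval -0.30 to 0.07). HMGCS1, the synthase that makes HMG-CoA, had 68.6 and 61.8 CPM with the mimic, against 69.4 and 68.7 CPM in the control. The groups of HMGCS1 did not overlap, by a gap far smaller than the spread within the mimic (log2 fold change -0.09). The thiolase ACAT2 (0.04), the kinases MVK (0.14, and 0.01 without control library 2) and PMVK (-0.01), the isomerase IDI1 (0.11) and the geranylgeranyl diphosphate synthase GGPS1 (-0.07) had log2 fold changes whose groups overlapped. PMVK had 6.99 and 7.99 CPM with the mimic, against 6.06 and 9.19 CPM in the control, so both mimic libraries lay between the control libraries. Of the exon sequence of ACAT2, 52.3% lies opposite other genes and of GGPS1 37.3% is shared with TBCE on the same strand, so their counts are less certain. Smaller opposite-strand shares were found for FDPS (18.6%), HMGCS1 (14.95%) and IDI1 (14.8%).

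Among the 11 enzymes from squalene onwards none passed either, with 4 above 0 and 7 below (median log2 fold change -0.06). TM7SF2, a sterol reductase that acts after the demethylation of lanosterol, lies on chromosome 11 from 65111845 to 65116384. It had 11.6 and 10.01 CPM in the mimic libraries, against 13.8 and 14.97 CPM in the control libraries. Both mimic libraries lay below both control libraries. The log2 fold change was -0.42 (standard error 0.14, interval -0.72 to -0.12), or 0.746-fold, with an edgeR BH adjusted p of 0.31, so it did not pass. SC5D, the desaturase of the sterol ring, lies on chromosome 11 from 121292453 to 121308694 and leaned the other way. It had 73.0 and 67.6 CPM with the mimic, against 63.6 and 63.0 CPM in the control. The log2 fold change of SC5D was 0.15 (interval 0.00 to 0.29, edgeR BH adjusted p = 0.52), and without mimic library 1 it was 0.09. DHCR7, the reductase of the last step, had 77.4 and 73.1 CPM with the mimic, against 80.8 and 84.5 CPM in the control. Its groups did not overlap, and its log2 fold change was -0.14 (interval -0.27 to 0.00). Neighbouring steps of the pathway thus had values on either side of 0.

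**Figure D3:**
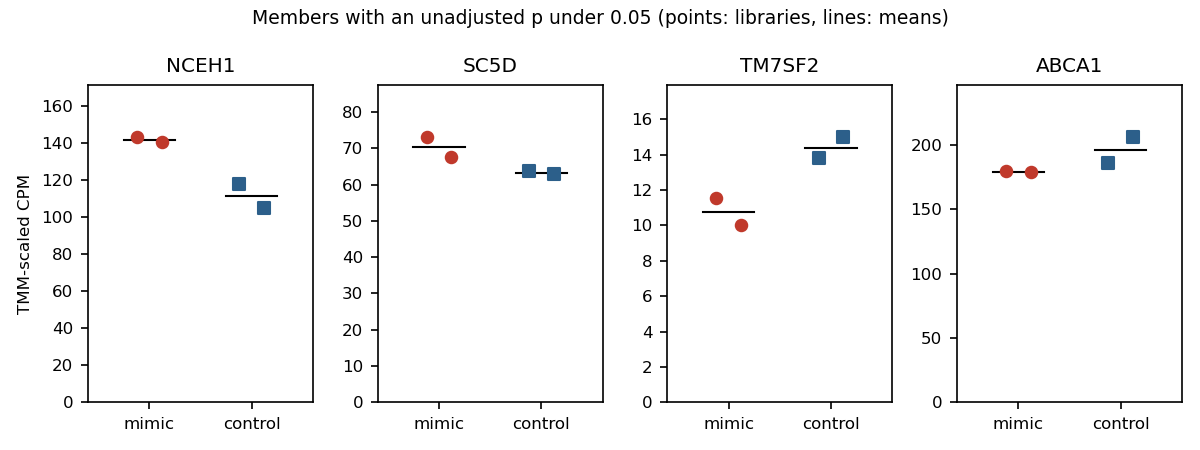
TMM-scaled CPM in each library (points) and group means (lines) for the 4 genes with an unadjusted p under 0.05, mimic left of control in each panel. In all 4 the groups do not overlap; NCEH1 (143.0 and 140.5 CPM against 118.1 and 104.8 CPM) is the one with an adjusted p under 0.05.

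FDFT1, the squalene synthase that commits farnesyl diphosphate to sterols, had 143.4 and 141.1 CPM with the mimic, against 127.3 and 137.7 CPM in the control. The gap between the groups was smaller than the spread within the control, and the log2 fold change was 0.10 (interval -0.02 to 0.22). SQLE, the squalene epoxidase and a strongly sterol-controlled step, had 105.7 and 104.7 CPM with the mimic, against 105.5 and 104.3 CPM in the control. The 4 libraries were nearly level, and the log2 fold change of 0.00 had an interval from -0.12 to 0.13. LSS, which closes the rings to lanosterol, had 55.0 and 54.0 CPM with the mimic, against 58.5 and 58.6 CPM in the control, a log2 fold change of -0.10 without overlap. The enzymes that take part in stripping methyl groups from the sterol, MSMO1 (-0.06), NSDHL (0.02) and HSD17B7 (-0.01), the isomerase EBP (-0.07) and the lanosterol demethylase CYP51A1 (-0.17) had overlapping groups. CYP51A1 was also low in level, between 5.32 and 6.79 CPM. Other annotated genes on its strand cover 79.4% of its exon sequence, and the table sets reads that are ambiguous between genes aside, so its level is uncertain.

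Among genes of SREBP2 control and sterol-regulated targets, none of the 6 measured passed the test. Of these, 4 lay above 0 and 2 below (median log2 fold change 0.06). SREBF2, which encodes SREBP2 itself, had 167.6 and 167.1 CPM with the mimic, against 164.9 and 162.3 CPM in the control. The groups did not overlap, by a gap smaller than the spread within the control, and the log2 fold change was 0.03 (interval -0.08 to 0.14). SCAP, the escort that carries SREBP2 to the Golgi, had 119.7 and 116.4 CPM with the mimic, against 126.8 and 120.0 CPM in the control (log2 fold change -0.07). INSIG2, an anchor of SCAP in the endoplasmic reticulum, had 301.7 and 305.7 CPM with the mimic, against 285.5 and 284.6 CPM in the control. Both pairs were tight and did not overlap, but the log2 fold change of 0.09 (interval -0.01 to 0.19) had an edgeR BH adjusted p of 0.569. Its partner INSIG1, on chromosome 7 from 155297776 to 155310235 and itself a well-known SREBP2 target, had 0 reads in both mimic libraries and 1 and 0 reads in control libraries 1 and 2. A limit of 3 reads corresponds to 0.158 to 0.194 counts per 1000000 gene reads, depending on the library, so INSIG1 fell under the filter and no change could be measured. Whether this count reflects the transcript or the alignment and counting of its reads was not tested. No other gene annotated in GENCODE 29 overlaps its exons. The annotation used in the counting is not given and may hold other genes.

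STARD4, a cytosolic sterol carrier under SREBP2 control, had 39.0 and 38.2 CPM with the mimic, against 36.3 and 34.3 CPM in the control. The libraries did not overlap (log2 fold change 0.13, interval -0.05 to 0.31, edgeR BH adjusted p = 0.691). MYLIP, a ubiquitin ligase induced through LXR that marks lipoprotein receptors for degradation, had 8.43 and 6.87 CPM with the mimic, against 6.42 and 6.21 CPM in the control. Its log2 fold change of 0.26 was the second highest of the 32, yet its interval ran from -0.14 to 0.66 at this low level, and it was 0.12 without mimic library 1 and 0.41 without mimic library 2. TMEM97, a sterol-regulated protein that binds NPC1, had 49.6 and 40.7 CPM with the mimic, against 51.0 and 41.9 CPM in the control. It was higher in library 1 than in library 2 of both groups, and the groups overlapped almost wholly (log2 fold change -0.05).

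NCEH1 stood out among the 3 genes of cholesteryl ester turnover. The gene lies on the minus strand of chromosome 3 from 172630249 to 172711218 (GRCh38, GENCODE 29). It is protein-coding and shares no exon sequence with another gene of that annotation. NCEH1 had 143.0 and 140.5 CPM in the mimic libraries, against 118.1 and 104.8 CPM in the control libraries. Both mimic libraries were close together and above both control libraries, which differed more from each other. The NCEH1 mean was 141.8 ± 1.76 CPM for the mimic and 111.4 ± 9.47 CPM for the control (SD, n = 2 each). This is a 1.27-fold rise, with a log2 fold change of 0.35, a standard error of 0.06 and an interval from 0.22 to 0.47 (edgeR BH adjusted p = 0.0103). Without control library 2 the log2 fold change was 0.26 with an edgeR BH adjusted p of 0.0696, and the call was lost. Without control library 1 it was 0.44 (edgeR BH adjusted p = 1.9e-07), and it stayed called without mimic library 1 (0.33, edgeR BH adjusted p = 0.0206) and without mimic library 2 (0.36, edgeR BH adjusted p = 0.00232). When genes with few reads were kept in, edgeR called 0 genes, 1514 had an unadjusted p under 0.05, and the BH adjusted p of NCEH1 was 0.754. The log2 fold change of NCEH1 was then 0.34, close to that with the filter. The summed hepatocyte markers had 17692 and 17275 CPM in the mimic libraries and 16442 and 15059 CPM in the control libraries. This sum put the 4 libraries in the same order as NCEH1. Its largest part was ALB, with 10190 and 9760 CPM with the mimic, against 9033 and 7991 CPM in the control. ALB, AFP, TTR, APOH and FGB were each higher in both mimic libraries. AHSG was lower (2265 and 2387 CPM, against 2430 and 2539 CPM), and the groups of HNF4A overlapped. The part of these markers in the NCEH1 result was not tested.

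The enzymes that run the opposite reaction did not pass. SOAT1, the widely expressed enzyme that esterifies cholesterol, had 66.6 and 64.4 CPM with the mimic, against 64.4 and 57.7 CPM in the control. The groups met between mimic library 2 and control library 1, and the log2 fold change was 0.10 (interval -0.05 to 0.25), or 0.02 without control library 2 and 0.18 without control library 1. SOAT2, the form known from hepatocytes and enterocytes, had 32.7 and 34.4 CPM with the mimic, against 36.6 CPM in each control library. Its log2 fold change of -0.12 (interval -0.30 to 0.06) had an edgeR BH adjusted p of 0.721, so SOAT1 and SOAT2 had values of opposite sign and neither passed.

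In efflux and lysosomal export none of 4 genes passed. ABCA1, the transporter that loads cholesterol and phospholipid onto lipid-poor apolipoprotein A-I, lies on chromosome 9 from 104781002 to 104928237. It had 179.7 and 178.8 CPM with the mimic, against 185.7 and 205.8 CPM in the control. The mimic libraries were close together and below both control libraries, of which library 2 was high. The log2 fold change of -0.13 (interval -0.24 to -0.01) had an edgeR BH adjusted p of 0.484. Without control library 1 ABCA1 passed (-0.20, edgeR BH adjusted p = 0.0468), and without control library 2 its log2 fold change was -0.05 (edgeR BH adjusted p = 0.947). ABCG1, which exports cholesterol to mature HDL and is another LXR target, had 3.33 and 3.89 CPM with the mimic, against 3.33 and 4.10 CPM in the control, with an interval from -0.57 to 0.51 on the log2 scale. At this depth a change of ABCG1 of less than about that size could not be told from no change, even before adjustment. A call at the adjusted threshold would have needed a larger change.

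NPC1, the membrane protein that moves cholesterol out of the lysosome, had 206.8 and 211.2 CPM with the mimic, against 198.1 and 194.7 CPM in the control. The groups did not overlap and the log2 fold change was 0.09 (interval -0.01 to 0.20, edgeR BH adjusted p = 0.619). Its soluble partner NPC2 had 63.0 and 62.3 CPM with the mimic, against 64.8 and 60.0 CPM in the control. Both mimic libraries of NPC2 lay between the control libraries, with a log2 fold change of 0.00.

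Levels of different genes were compared per kilobase of exon, in CPM per kilobase. INSIG2 was highest, at 76.4 and 77.4 in the mimic libraries, against 72.3 and 72.1 in the control libraries. FDFT1 (mean of all 4 libraries 26.4), NCEH1 (26.3), SQLE (24.4), NPC2 (22.8) and SREBF2 (21.9) followed. NCEH1 had 29.8 and 29.2 in the mimic libraries, against 24.6 and 21.8 in the control libraries. FDFT1 had 27.6 and 27.1 in the mimic libraries, against 24.5 and 26.5 in the control libraries, so NCEH1 was above it in both mimic libraries and below it in control library 2. SQLE lay above NPC2 in every library, while the ranges of NPC2 and SREBF2 overlapped. Among the ester genes NCEH1 was above SOAT2 (17.2), and SOAT2 above SOAT1 (9.03), in every library. ABCA1 (16.5) was far above ABCG1 (0.598). The lowest of the tested enzymes were MVK (1.83), CYP51A1 (1.79) and HSD17B7 (1.56), whose ranges over the libraries overlapped. The place of CYP51A1 is uncertain, because other genes on its strand cover 79.4% of its exon sequence and ambiguous reads were set aside. In CPM the 32 tested members lay between the 25.7th and the 96.5th percentile of all tested genes.

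**Figure D4:**
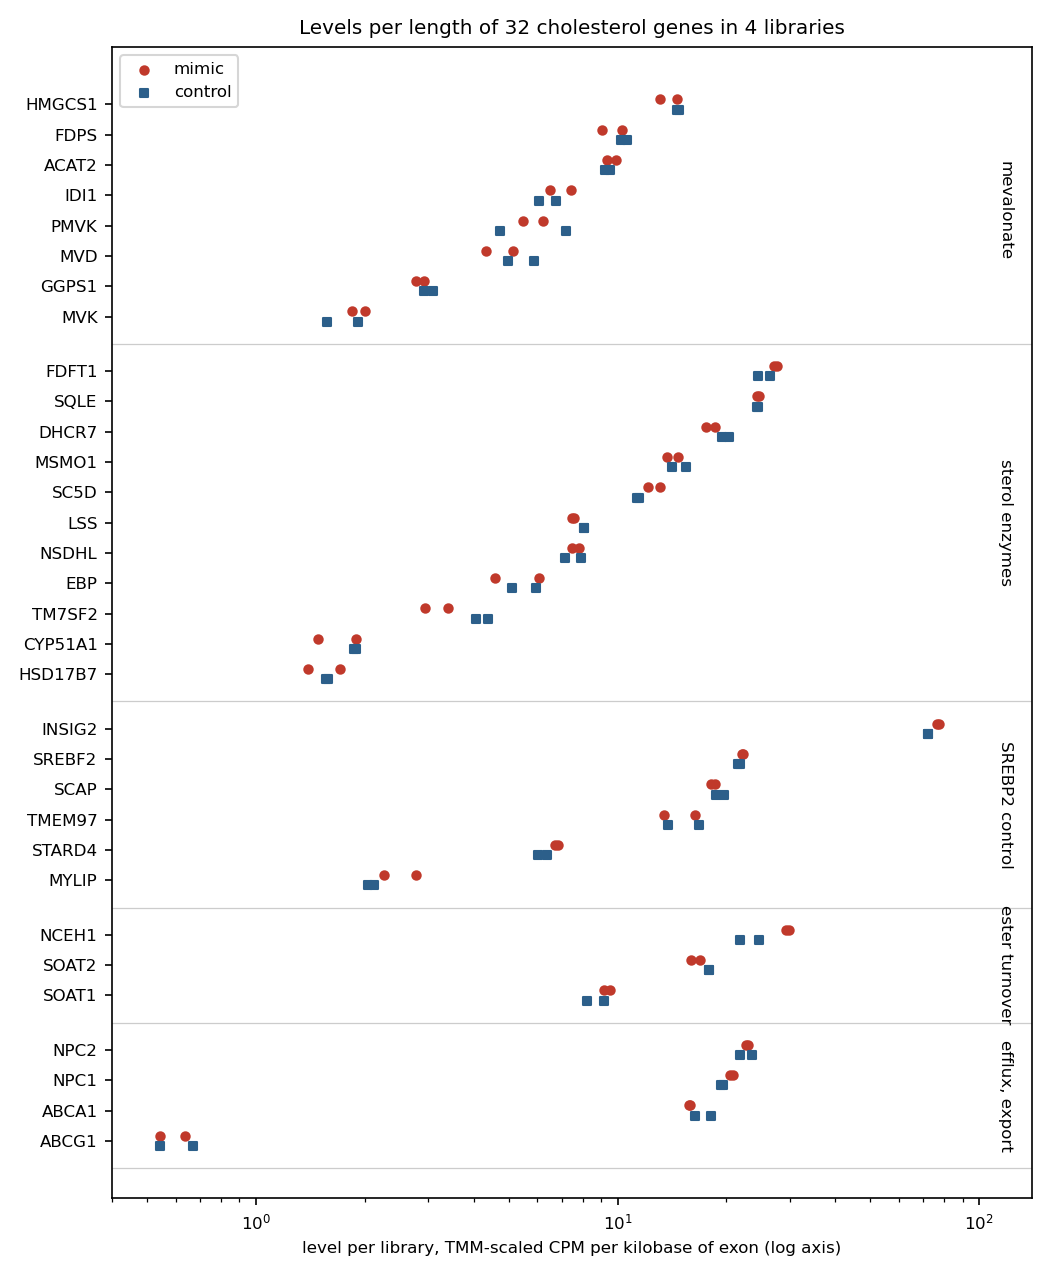
Level per library in TMM-scaled CPM per kilobase of exon (log axis) for 32 genes, grouped by role and ordered by mean level, with mimic libraries as red circles above control libraries as blue squares. INSIG2 is the highest (72.1 to 77.4) and ABCG1 the lowest (0.544 to 0.670); INSIG1, with 1 read in all, is left out.

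Other genes of the pathway gave no call in the main comparison. Of 49 listed genes 46 were tested and 0 passed in edgeR, against 0.346% of all genes tested. An unadjusted edgeR p under 0.05 was found for 3 of the 46, or 6.52%, against 9.43% of all genes tested. DESeq2 and limma voom likewise called 0, though DESeq2 left part of the 46 without an adjusted p. Among 10 isoprenoid branch genes (5 above 0 and 5 below, median log2 fold change 0.01), NUS1, a subunit of the enzyme that makes dolichol precursors, had the smallest p. It had 76.9 and 74.6 CPM with the mimic, against 66.6 and 66.1 CPM in the control (log2 fold change 0.19, edgeR BH adjusted p = 0.339). Among 8 partners of the sterol enzymes the median was 0.01. Among 12 genes of SREBP processing and sterol-regulated degradation (3 above 0 and 9 below, median -0.02) the smallest p was that of SPRING1, a protein needed for SREBP activation. SPRING1 had 146.8 and 153.0 CPM with the mimic, against 137.0 and 132.0 CPM in the control (log2 fold change 0.16, edgeR BH adjusted p = 0.347). Of 9 genes of LXR and oxysterols 7 were tested (median -0.01), and the sterol exporter ABCG5 had the smallest p with a log2 fold change of -0.20. CH25H and CYP46A1, which make oxysterols, had no read in any library.

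Of 10 genes of lysosomal and contact-site sterol transport 9 were tested (median 0.02). LAMP2, a lysosomal membrane protein, had 304.8 and 299.6 CPM with the mimic, against 263.9 and 266.6 CPM in the control. Both pairs were tight and apart, with a log2 fold change of 0.19 (interval 0.09 to 0.29), but the edgeR BH adjusted p was 0.1. The lysosomal lipase LIPA, which frees cholesterol from lipoprotein esters, had 97.7 and 99.0 CPM with the mimic, against 94.1 and 97.9 CPM in the control (log2 fold change 0.04). NCEH1 and LIPA hydrolyse cholesteryl esters in different compartments, and only the NCEH1 value passed; the difference between their changes was not tested.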

How the data were processed

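The authors deposited raw counts of reads per Ensembl gene for 4 poly(A)-selected, stranded libraries (RNA integrity number above 9.5, 500 ng of total RNA, per the labels' protocols). FastQC, Bowtie2, STAR and HTSeq with GRCh38.p14 are named, per the submitters' processing notes; versions, annotation and strand setting of the counting are not given in the sources used, so genes with an overlapping or antisense neighbour are less certain. The 5 summary entries that name no gene held 23.1% to 24.1% of each library's total and were left out. Both control columns carry the series' abbreviation for negative control; the remaining pair, marked with an unexplained number, was read as mimic because no other treatment exists in the series; were that wrong, directions would have no meaning. Library numbers are those of the columns, which could be matched to groups but not to single samples.

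Low genes were removed by filterByExpr (count at least 10, total at least 15), and the rest scaled with TMM factors and tested with edgeR 4.0.16 in R 4.3.3 (glmQLFit with legacy = FALSE, glmQLFTest), with Benjamini-Hochberg adjustment over 14464 genes and a threshold of 0.05. Alternatives used DESeq2 1.42.0, limma 3.58.1 (voom), other scalings and filters, each library left out and, added after seeing the data, the column number as a replicate block. The edgeR step was tested on simulated data with known changes. Exon lengths and overlaps came from GENCODE 29 (GRCh38), matched by gene ID. The members and lists were chosen with earlier results of these data known. They do not cover the whole pathway, and several well-known genes of sterol synthesis and lipoprotein uptake outside them were not analysed here. The smallest p among the enzyme partners is not reported here. Values per library are given for members called, with an unadjusted p under 0.05, highest per length, under the filter, or with the 2 smallest p of their role, and for others where a sentence needed them. Intervals cover the spread between libraries, limits on reads counting error only.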

Additional observations from a re-analysis of the deposited data

How the results depend on the processing

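The labels give the groups no shared replicate number, but the columns number the libraries 1 and 2 in each group. The deviations of same-numbered libraries from their group means correlated at r = 0.0234 across 14464 genes. With 2 libraries per group this value cannot show whether same-numbered libraries shared a culture or a batch, which was not tested. The column number was used as a replicate block, chosen after seeing the data and leaving 1 residual degree of freedom. With this block edgeR called 306 genes, against 50, and the same member, NCEH1. Of the 46 other pathway genes tested it called 1, against 0 without the block. Of 389 values of single members with an adjusted p under 13 other settings, 358 kept their direction and their side of the threshold, 1 gained a call (ABCA1 without control library 1), 2 lost one (NCEH1 with no filter and without control library 2) and 28, in 11 genes that were never called, changed sign; the cause was not tested. Without the filter edgeR called 0 genes (1514 at an unadjusted p under 0.05) and 0 members, and SQLE stood at -0.0003. DESeq2, which gave 3247 genes and 10 members an adjusted p and kept the direction of the other 22, called 32 genes, against 50, of which 29 were shared. With library totals the members' median was -0.0285, SQLE stood at -0.0165, NSDHL at -0.0035 and NPC2 at -0.0145. Upper-quartile factors put SQLE at -0.0086 and NPC2 at -0.0067, a filter at 10 CPM put SQLE at -0.0051 and NPC2 at -0.0032, and limma voom put PMVK at 0.0166. Leaving out 1 library gave 20 (without mimic library 1) to 424 genes called (without control library 1), with 120 without mimic library 2 and 22 without control library 2. It gave 0 (without control library 2) to 2 members called (NCEH1 and ABCA1, without control library 1), a median from -0.0049 to 0.0093, and NCEH1 log2 fold changes from 0.26 to 0.44. Over the same omissions log2 fold changes ran for PMVK from -0.29 to 0.31, SQLE from -0.0055 to 0.0122, NSDHL from -0.0534 to 0.0934, HSD17B7 from -0.17 to 0.12, ABCG1 from -0.17 to 0.13, NPC2 from -0.0474 to 0.0624, ACAT2 from -0.0086 to 0.0811, CYP51A1 from -0.34 to 0.0095, EBP from -0.27 to 0.14, TMEM97 from -0.19 to 0.10, MVD from -0.33 to -0.0837, MVK from 0.0081 to 0.29, MYLIP from 0.12 to 0.41, SOAT1 from 0.0242 to 0.18 and MSMO1 from -0.13 to 0.0032. With 2 libraries in a group an omission leaves 1, which is assumed to vary like the other group. The widest intervals were those of tested members under 10 CPM, and the part of depth in this was not tested.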

Other observations

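Other hydrolases of cholesteryl esters and relatives of NCEH1, picked after the value of NCEH1 was seen, gave no call. CES1, a carboxylesterase of hepatocytes, had 119.4 and 121.9 CPM with the mimic, against 121.1 and 106.6 CPM in the control, with a log2 fold change of 0.08 and an edgeR BH adjusted p of 0.736. AADAC, an arylacetamide deacetylase of the same family as NCEH1, stood between 1.49 and 2.22 CPM in the 4 libraries, with a log2 fold change of 0.02. CEL, the bile salt-activated lipase, stood between 1.49 and 2.56 CPM, and the hormone-sensitive lipase gene LIPE had no read in any library.

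The protein-coding genes nearest to NCEH1 on chromosome 3, named after their values were seen, differed in level. ECT2, a regulator of cell division on one side, had 205.1 and 204.5 CPM with the mimic, against 188.7 and 173.2 CPM in the control (edgeR BH adjusted p = 0.225). TNFSF10, the death ligand TRAIL on the other side, stood between 2.08 and 3.09 CPM with overlapping groups. On chromosome 7 the direct neighbours of INSIG1, HTR5A and EN2, had no read in any library, while PAXIP1, one gene further, had between 389 and 480 reads per library.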
